A study of Gallus gallus with 12 samples.

Results

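The tissue described here was the utero-vaginal junction (UVJ) of 4 control hens, that is 4 of the 12 hens of the series. The members were the samples that the labels give as control, and no measured value was used to choose them. All birds were White Leghorn layers kept under a light and dark cycle of equal length, and the controls had neither been mated nor inseminated. Their UVJ was dissected at the same time as that of 4 hens mated with 1 male each and 4 hens given sperm-free seminal fluid (SF), 24 h after treatment, and snap-frozen. The mated and SF hens served here only to see whether the spread, ranges and brightest features of control hens were also found among other hens. No effect of treatment was tested. Age and the stage of the laying cycle were not given in the sources used here. Each hen gave 1 array, and the arrays of control hens 1 to 4 carry the numbers 1 to 4 of the slide, so that hen, dissection and array cannot be told apart.

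The UVJ is the short segment between the shell gland (uterus) and the vagina of the bird oviduct. Its mucosal folds are covered by ciliated and secretory columnar cells, and they enclose the sperm storage tubules, blind invaginations lined by columnar cells without cilia, in which sperm stay fertile until they are released for fertilisation. Beneath the mucosa lie connective tissue, vessels, resident leukocytes and a thick coat of smooth muscle. The neighbouring shell gland secretes calcium, bicarbonate and matrix proteins of the eggshell, while egg white proteins are made higher up, in the magnum. A cut at the junction can therefore hold tissue of several kinds. In such whole tissue, fewer cells of a type and less RNA per cell cannot be told apart.

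Transcript levels were read as Cy3 intensity on a custom chicken array with 37374 features, and each level given below is a log2 intensity. The reference for absence was a control feature of 28754 probes of random sequence, whose level was 3.85 to 3.91 in the 4 hens. The median intensity of an array lay between 1086 and 1099, and 94.9% to 95.6% of its features were brighter than its random probes. A feature was called above random when limma's treat test, with Benjamini-Hochberg adjustment over all features, placed it more than 1 above the random probes (adjusted p under 0.05, n = 4 hens). By that rule 33426 of 37374 features were called, which is 89.4%. The share was 94.3% for RefSeq transcripts, 90.7% for Ensembl transcripts and 86.7% for expressed sequence tags. With the brightest feature standing for each gene, 11286 of 11896 characterised genes were called (94.9%), and 610 were not. Levels over all features had a 10th percentile of 5.14, a median of 10.08 and a 90th percentile of 12.89. Probes differ in how well they bind, and 35.8% of 1483 genes with several features had their upper pair more than 1 apart, so the order of brightness between genes is not an order of transcript number.

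The brightest signals of the resting UVJ included genes of respiration and translation, contractile genes, an epithelial gene, an egg white inhibitor and an antibody chain. Of the 20 brightest characterised genes, 8 were encoded by mitochondrial DNA, and the 13 mitochondrial genes measured lay between 13.96 and 15.13. Cytochrome oxidase subunit COX3 (COX3_CHICK on the array) was at 15.12, 15.08, 15.18 and 15.14 in hens 1 to 4. Ubiquitin, which marks proteins for degradation, was at 15.19, 15.22, 15.16 and 14.99, and 18 features carried its name (UBIQ_CHICK). Translation elongation factor EEF1A1 and the W-linked gene HINTW, which hens carry, had means of 14.80 and 14.77. SPINK5, the ovoinhibitor of egg white (IOV7_CHICK), lay at 14.98, 15.04, 15.05 and 15.12, and its 4 features had means between 14.94 and 15.05. The constant part of the immunoglobulin lambda light chain (LAC_CHICK) lay at 15.08, 15.14, 14.70 and 14.99, lowest in hen 3 in all 3 of its features.

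Smooth muscle was represented among the 20 by the regulatory myosin light chain MYL9, at 14.95, 14.87, 14.88 and 14.91. An actin feature named ACTA1 had a mean of 14.93, but actin transcripts are alike and this feature may also read those of other actin genes. An epithelial gene among the 20 was TSPAN1, a tetraspanin of the cell membrane, at 14.74. ANXA2, a membrane-binding annexin, was also at 14.74 and cannot be assigned to a cell type in whole tissue. The SD of these 20 genes over the 4 hens was between 0.02 and 0.20. The arrays were quantile-normalised before deposit and share the same highest intensity, so genes this bright had little room to differ. Their small SD is therefore not read as likeness of the hens. Of the 100 brightest control features, 94 were among the 100 brightest of the mated hens and 87 among those of the SF hens. The 100 held 32 tags, 46 features of 26 characterised genes and 22 other transcripts, and their median SD was 0.07.

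To place cell types and functions, 35 lists with 1229 gene entries were read against the random probes, and 939 entries were measured, each gene by its brightest feature. The median level of all 11896 characterised genes was 10.83, and 18 of the 35 lists had a median at or above it. The highest medians were those of columnar epithelium (13.58), ribosomal proteins (13.55), smooth muscle (13.27), oxidative phosphorylation (13.05) and connective tissue (13.02). The place of oxidative phosphorylation rests on reading the brightest feature. Its median was 12.66 with the mean over all features of a gene and 12.64 with the median feature. The lowest were those of liver (5.89) and of testis and sperm (6.38). Since 94.9% of all characterised genes were called, a list with nearly all members called is near that background, and its count is not by itself a sign of a cell type.

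**Figure D1:**
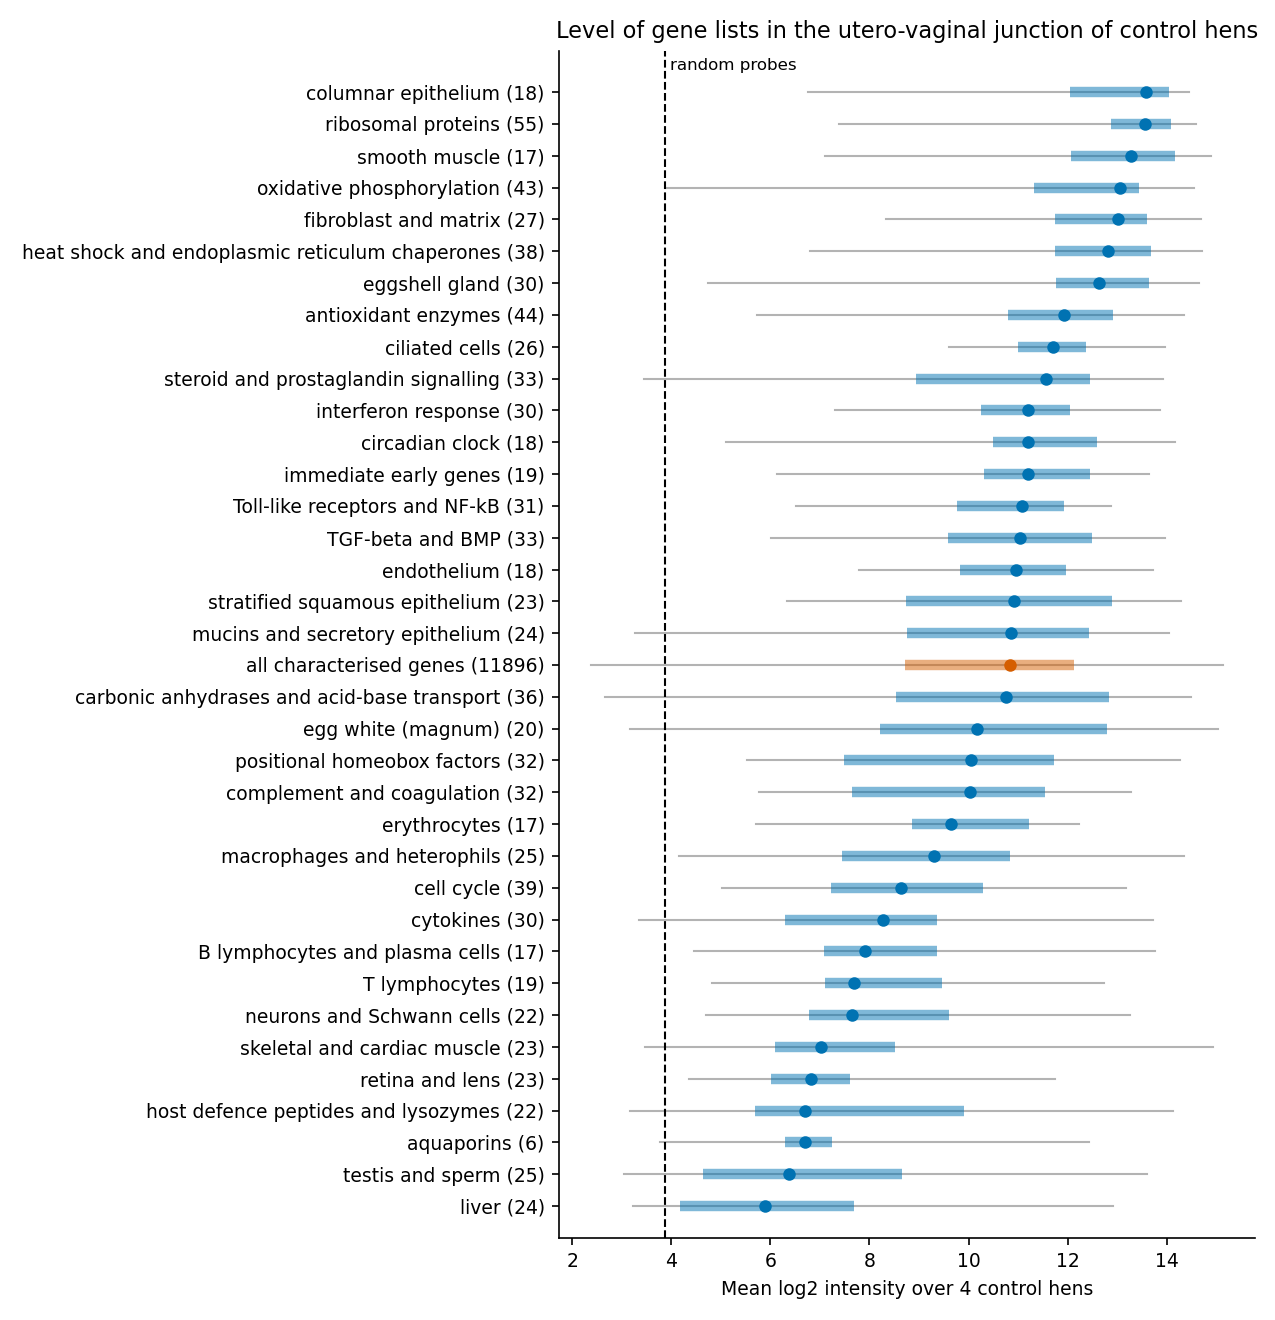
Level of 35 gene lists and of all characterised genes, as mean log2 intensity over the 4 control hens (x axis); dots are medians over the measured members (number in brackets), thick bars the range between the lower and upper quartile of the members, thin lines the full range, and the dashed line the random probes. Columnar epithelium (13.58) and ribosomal proteins (13.55) had the highest medians and liver the lowest, at 5.89, against 10.83 for all characterised genes.

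Columnar epithelium genes had the highest median of the 35 lists, at 13.58, with ribosomal proteins close at 13.55. This order rests on hen 4, as without it ribosomal proteins were at 13.59 and columnar epithelium at 13.57. Of 30 listed markers 18 were measured, and all 18 were called, where 94.9% of all characterised genes were. EPCAM (TACSTD1 on the array), an adhesion molecule of epithelia, lay at 14.47, 14.50, 14.35 and 14.44, and keratin KRT8 at 14.23, 14.37, 14.49 and 14.35. E-cadherin, CDH1, had a mean of 14.34 and claudin CLDN1, a tight junction protein, of 14.12. None of the 18 had an SD above 1, and the mean over the list was 12.21, 12.36, 12.27 and 12.28 in hens 1 to 4. PAX2, a factor that forms the oviduct, was at 13.62 on average with an SD of 0.09. Single members still differed, and the factor EHF, of epithelial differentiation, lay at 13.27, 12.50, 11.29 and 13.03, lowest in hen 3. The cadherin CDH17 was dim, at 5.98, 6.79, 7.73 and 7.14, lowest in hen 1.

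Ciliated cell genes had a median of 11.70, above the 10.83 of all characterised genes. All 26 measured were called, against 94.9% of all, and their means reached down to 9.60. The brightest was FOXJ1, the factor that switches on motile cilia, at 14.10, 13.88, 13.69 and 14.17. Next came the dynein arm genes DNAH9 (mean 13.74) and DNAI2 (13.42) and the radial spoke gene RSPH9 (12.88). Differences between hens were small but ran alike over the list. Hen 1 was the highest for 21 of the 26 genes and hen 3 the lowest for 23, whereas over all characterised genes hen 1 was the highest for 3325 of 11896 and hen 3 the lowest for 3676. The list mean was 12.10, 11.66, 11.28 and 11.77. The most variable members were LRRC6, needed to assemble dynein arms, at 10.48, 9.31, 8.67 and 9.92, and CCDC39, which sets their spacing, at 10.59, 10.89, 9.77 and 9.41.

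Smooth muscle had a median of 13.27, and all 17 measured genes were called, where 94.9% of all characterised genes were. Besides MYL9, the actin-binding protein TAGLN (14.66, 14.61, 14.71 and 14.74) and smooth muscle myosin MYH11 (14.47, 14.48, 14.57 and 14.61) were nearly equal in the 4 hens. Receptors for the hormones that contract the oviduct were dimmer but above random, with AVPR1A at 8.83, 10.01, 10.13 and 9.86 and OXTR at 8.07 on average. Connective tissue genes had a median of 13.02 with 27 of 27 called. SPARC, a protein that binds collagen, was at 14.69 and collagen COL1A2 at 14.63 on average, while elastin, ELN, lay at 14.45, 14.00, 14.16 and 14.29. Hen 4 was the highest for 24 of these 27 genes, and the list mean was 12.71, 12.47, 12.25 and 13.12. The growth factor receptor PDGFRB (9.53, 7.33, 6.36 and 10.09) and the matrix protein POSTN (10.39, 8.93, 9.49 and 11.63) differed most. Endothelial genes had a median of 10.97, close to the 10.83 of all characterised genes, and 18 of 18 were called, against 94.9% of all. They were led by von Willebrand factor, VWF, at 13.56, 13.70, 13.99 and 13.63, and PECAM1 at a mean of 12.89. The growth factor receptor KDR lay at 11.16, 11.78, 12.20 and 11.25 and LYVE1, of lymph vessels, at 8.83, 9.24, 9.49 and 9.98.

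Shell gland genes were well above random in this tissue, and several of them split the hens. Of 30 measured, 29 were called, against 94.9% of all characterised genes, with a median of 12.63. The ones with an even level included RARRES1 (OCX32_CHICK on the array), a protein deposited in the eggshell, at 14.66, 14.49, 14.94 and 14.53, the sodium pump subunit ATP1B1 (mean 14.56), and the matrix proteins EDIL3 (14.29) and MFGE8 (14.21), which bind calcium-laden vesicles. SPP1, osteopontin, lay at 11.72, 12.77, 14.69 and 11.54, highest in hen 3. Another 6 of the 30 genes also had an SD above 1, so 7 of 30 (23.3%) did, where 4.03% of all characterised genes did. Among them were the epithelial sodium channel subunits SCNN1A at 11.28, 13.35, 13.40 and 12.28 and SCNN1G at 9.97, 12.14, 12.87 and 10.75, and the chloride transporter SLC26A9 at 6.70, 8.51, 10.34 and 6.14. The remaining ones, MEPE, GKN2 and CALB1, were also the most variable characterised genes of the tissue and are described with the spread. The list was chosen with earlier results of these data known, so its share of variable genes is only a description. Nor was such a share particular to it. Squamous (21.7%), positional homeobox (21.9%) and egg white genes (20%) had similar shares, while columnar, ciliated and smooth muscle genes had 0%. TRPV6, a calcium channel, was not called (mean 4.74).

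Egg white genes formed a mixed picture. Of 20 measured 19 were called, against 94.9% of all characterised genes, with a median of 10.17. SPINK5, cystatin CST3 (mean 14.39), clusterin CLU (14.18) and ovotransferrin TF (14.58, 13.93, 13.92 and 14.09) were bright in each hen, and all of these are also made by tissues other than the magnum. Ovalbumin, OVAL, the main protein of egg white, lay at 7.36, 11.57, 6.97 and 6.91, so that only hen 2 had a high level, and its other feature (6.81, 11.37, 6.04 and 5.85) had the same order of hens. A related gene of the same family, SERPINB14B, lay at 8.92, 11.69, 4.75 and 8.36, again highest in hen 2. Avidin, AVD (LOC396260), which binds biotin, was at 12.92, 11.08, 11.33 and 10.65, highest in hen 1. Lysozyme, LYZ, was at 9.32, 10.33, 10.98 and 9.77, and VMO1, a protein of the yolk membrane, was not called.

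Squamous epithelium genes lay near the median of all genes (10.91), with 22 of 23 called, against 94.9% of all characterised genes. Their brightest members were keratin KRT24 (KRT19 on the array, mean 14.29) and integrin ITGB4 (14.40, 14.17, 13.26 and 14.15). ITGB4 is also found in columnar epithelia, and whether the signal of this keratin feature came from squamous or columnar cells was not tested. TP63, the master factor of stratified epithelium, lay at 10.97, 10.50, 10.31 and 13.46, and keratin KRT5, of basal cells, at 10.85, 9.64, 9.70 and 12.73. TRIM29 was at 8.37, 6.71, 5.95 and 10.20, and the co-activator VGLL1 at 5.34, 4.95, 5.18 and 9.89. Each of these 4 genes was highest in hen 4. The cornified envelope gene EVPL went another way, at 8.61, 12.57, 11.79 and 10.68. Hen 1 was the highest for 8 of the 23 genes, among them KRT13 (KRT15 on the array, 11.39, 10.84, 10.45 and 10.87). VGLL1 was not called over the 4 hens (limma treat, adjusted p = 0.104), with hens 1 to 3 between 4.95 and 5.34. The list mean was 10.70, 10.57, 10.33 and 11.43, and hen 4 was the highest for 10 of 23 genes. Without the 5 members with an SD above 1 it was 11.23, 11.04, 10.81 and 11.44. Leaving out members for their spread tends to lower such differences.

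Leukocyte lists lay below the median of all characterised genes, with some bright members. Of T lymphocyte genes 17 of 19 were called, a share below the 94.9% of all characterised genes, and their median of 7.70 was little above the 6.81 of retina and lens genes. CD3E, a chain of the T cell receptor complex, lay at 11.58, 11.99, 11.43 and 11.45, and CD8A, of cytotoxic cells, at 10.50, 11.83, 11.24 and 11.12, while CD4 had a mean of 7.48. Hen 2 was the highest for 15 of the 19 genes, against 2475 of 11896 characterised genes, and the list mean was 7.97, 8.82, 8.25 and 8.18. The killer ligand FASLG (6.50, 7.68, 8.26 and 7.23) and the inhibitory receptor CTLA4 (5.22, 6.67, 6.05 and 4.88) varied most, at levels also found for genes of other tissues. B lymphocyte and plasma cell genes had a median of 7.91 with 16 of 17 called. The joining chain of secreted antibodies, IGJ, was bright (13.79, 12.29, 12.72 and 13.22), like the light chain above, while the B cell surface marker BU1 (LOC396098) had a mean of 7.09. Antibody that crosses the epithelium is carried by PIGR, which lay at 14.21, 13.41, 13.43 and 14.91, highest in hen 4. Macrophage and heterophil genes had a median of 9.31 (23 of 25 called, a share below the 94.9% of all characterised genes). On top were the lysosomal proteases CTSB (mean 14.34) and CTSS (13.96) and the antigen presentation chain CD74 (13.70). MMP9 (10.81, 9.24, 7.55 and 8.45) and the scavenger receptor MARCO (9.38, 8.60, 7.12 and 10.41) differed most between hens, both lowest in hen 3. Cathepsins and CD74 are made by other cells too.

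Blood could have added transcripts of its own, since chicken erythrocytes keep a nucleus. The 17 erythrocyte genes were all called (median 9.66), where 94.9% of all characterised genes were. Beta globin (HBBA, HBG2 on the array) lay at 10.93, 12.28, 12.83 and 12.91 and alpha globin HBA1 (HBAA) at 8.49, 10.08, 10.63 and 10.84, both lowest in hen 1. The list mean was 8.89, 9.35, 9.56 and 9.67. The part of blood in the leukocyte levels was not tested.

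Sensors and signalling of innate immunity had an even level. All 31 measured Toll-like receptor and NF-kB genes were called (median 11.08, median SD 0.18), against 94.9% of all characterised genes. NFKB1 had a mean of 12.87 and its inhibitor NFKBIA lay at 13.08, 12.56, 12.88 and 12.94. Among receptors, TLR3, which senses double-stranded RNA, was at 11.45, 11.73, 11.95 and 12.15. TLR21, a sensor of microbial DNA in birds, was at 11.27 on average and TLR4 at 8.55. TLR15 was at 6.52, near the median of retina and lens genes (6.81, or 6.37 with the mean over all features of a gene). Its call was therefore not read as expression. The antimicrobial peptides were mostly dim. Of 22 host defence genes 19 were called (86.4%), below the 94.9% of all characterised genes, with a median of 6.70. Of the 13 avian beta-defensins measured (GAL1 to GAL13 on the array) 10 were called, also below that share. Only AvBD10 (GAL10), at 6.36, 12.69, 12.99 and 8.91, and GAL12, at 11.05, 13.29, 12.77 and 11.87, had a mean over 8, and both were lowest in hen 1. BPIFB3 (LOC419289), of the family of bacterial lipid-binding proteins, lay at 10.61, 13.92, 15.09 and 12.96, and its relative BPIL3 at 5.34, 10.26, 11.61 and 8.08, in the same order of hens.

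Cytokine genes had a median of 8.28 with 26 of 30 called, a share below the 94.9% of all characterised genes. The death ligand TNFSF10 (mean 13.71) and the macrophage factor MIF (13.07) were bright, and CX3CL1, a membrane-bound chemokine, lay at 12.52, 11.29, 10.34 and 12.85. The main inflammatory cytokine IL1B was dim but called, at 7.31, 6.70, 6.99 and 6.69. These levels are near the 6.81 median of retina and lens genes, so the call was not read as expression. Interferon gamma (IFNG, mean 4.51) and the colony factor CSF2 (3.35) were not called. Genes of TGF-beta and BMP signalling, a pathway that restrains immune responses and shapes epithelia, were all called (33 of 33, median 11.04), where 94.9% of all characterised genes were. TGFB3 was the brightest ligand at 13.91, 13.95, 14.05 and 13.95. The BMP inhibitor GREM1 (6.76, 7.11, 7.54 and 10.24) was high in hen 4, and follistatin, FST (6.95, 8.97, 9.98 and 7.81), an inhibitor of activin, was lowest in hen 1. All 32 complement and coagulation genes were called (median 10.04), led by C4BPA (mean 13.28) and SERPINE2 (13.08), which restrain complement and proteases.

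Genes that interferon induces had a median of 11.21, and all 30 were called, against 94.9% of all characterised genes. In this list 1 hen stood apart. Hen 4 was the highest for 26 of the 30, against 2931 of 11896 characterised genes, and the list mean was 10.78, 10.75, 10.74 and 11.71. MX1, an antiviral GTPase, lay at 11.18, 11.27, 11.31 and 12.95, and EPSTI1 at 9.98, 10.12, 9.77 and 12.05. RSAD2, which makes a chain-terminating nucleotide, was at 7.57, 7.87, 8.57 and 10.55, and SAMD9L at 6.12, 6.81, 6.53 and 9.74. For these genes hens 1 to 3 lay close together and hen 4 lay above them. The transcription factor IRF8 differed less, at 13.94, 13.88, 13.65 and 14.01. Without the 5 members with an SD above 1, the list mean was 11.26, 11.20, 11.23 and 11.88. In the same hen the squamous and the connective tissue lists were also highest, and their part in the interferon values was not tested.

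Carbonic anhydrases and acid-base transporters set the pH and bicarbonate of oviduct fluid. Of 36 measured genes 33 were called (median 10.77), a share below the 94.9% of all characterised genes. Carbonic anhydrase CA4, a membrane enzyme that interconverts carbon dioxide and bicarbonate, lay at 14.83, 14.86, 13.60 and 14.66, lowest in hen 3, and the bicarbonate cotransporters SLC4A4 (mean 13.82) and SLC4A7 (13.46) were even. The cytoplasmic enzyme CA2 was at 11.78, 13.28, 13.42 and 11.88, and CA8, a relative without enzyme activity, at 10.25, 13.78, 13.78 and 11.68, each higher in hens 2 and 3 than in hens 1 and 4. CA12, another membrane enzyme, went the other way (11.12, 8.29, 7.51 and 8.00), with hen 1 above the rest. CA1, CA7 and the sodium-proton exchanger SLC9A3 were not called. The proton pump had its accessory subunit ATP6AP1 at a mean of 13.84, while the subunit ATP6V0D2 lay at 8.78, 11.63, 12.27 and 10.27. Of aquaporin water channels only 6 of 12 listed were measured. AQP1 was bright (12.13, 12.55, 12.23 and 12.82), 4 others had means between 6.24 and 7.36, and AQP4 was not called.

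Among receptors of the hormones that govern the oviduct, that of progesterone was bright. Of 33 steroid and prostaglandin genes 30 were called, a share below the 94.9% of all characterised genes, with a median of 11.56, and none had an SD above 1. The progesterone receptor, PGR, lay at 13.72, 13.42, 13.28 and 13.62 and estrogen receptor ESR1 at 11.25, 12.11, 12.69 and 11.77. The second estrogen receptor, ESR2, was not called, nor were the steroid-making enzymes HSD3B1 and CYP19A1. Both prostaglandin synthases were above random, with PTGS1 at a mean of 12.75 and PTGS2 at 11.62, 12.55, 11.43 and 11.24. The transporter SLCO2A1, which takes up prostaglandins, lay at 10.73, 12.26, 12.17 and 10.86.

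Antioxidant enzymes, which remove peroxides and superoxide, were all called (44 of 44, median 11.94), and 1 had an SD above 1. PRDX6 lay at 14.36, 14.36, 14.30 and 14.36 and superoxide dismutase SOD1 at 13.96, 13.99, 14.01 and 14.01, while the secreted glutathione peroxidase GPX3 was at a mean of 13.97 and HMOX1, which breaks down haem, at 12.75. The exception was PRDX4, a peroxiredoxin of the secretory pathway, at 11.67, 10.42, 7.29 and 10.70, low in hen 3. Chaperones had a median of 12.81 with 38 of 38 called, and HSPA8, at 14.72, 14.72, 14.71 and 14.73, was among the 10 least variable genes. Of genes for mucus and secretion 22 of 24 were called (median 10.86), a share below the 94.9% of all characterised genes. AGR2, which folds mucins, was at 14.18, 14.04, 13.95 and 14.05, yet the mucins measured were dim, with MUC1 at 6.77 on average and MUC2 not called. The trefoil peptide TFF2 lay at 8.19, 11.83, 11.24 and 7.46 and the mucin glycosyltransferase GCNT3 at 13.48, 12.16, 9.55 and 12.42.

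Lists of tissues that the UVJ does not contain served as a check on the reference. Of 24 liver genes 15 were called, with a median of 5.89, and of 25 testis and sperm genes 15, with a median of 6.38, against 94.9% of all characterised genes. Albumin, ALB, lay at 7.01, 7.17, 7.47 and 7.21, so a call above random was also given to a gene at a low level, and APOB, FGG and FABP1 were not called. Germ cell genes DDX4 (3.39, 3.24, 3.58 and 3.32) and DAZL (mean 3.43) lay below the random probes, and the sperm membrane gene SPACA1 was at 3.05. Other members of the testis and sperm list were bright, with an upper quartile of 8.67 and a highest level of 13.61. The brightest were PGK2, ODF2, TEKT3 and PIWIL1. Whether cells of the UVJ make these transcripts was not tested, so their signal is not read as false. Of 23 retina and lens genes 19 were called with a median of 6.81, so features of genes that this tissue should lack also gave signal above random. That median was 6.37 with the mean or the median feature of a gene. Skeletal and cardiac muscle genes had a median of 7.02, with 20 of 23 called. A call at such a level was therefore not read as expression of the gene. APOA1 (mean 12.92), FGB and TTR (8.54, 7.24, 6.37 and 9.72) were among the liver genes that were bright or variable here. HPD and TAT were also among the 4 brightest of the liver list, and ITIH2 had 1 hen apart.

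The 4 hens were alike for most transcripts and far apart for a few. The SD over the hens had a median of 0.24 over all features, a 90th percentile of 0.65 and a maximum of 4.99. It was above 1 for 1402 of 37374 features (3.75%) and for 479 of 11896 characterised genes (4.03%). The range between the lowest and the highest hen was above 2 for 1718 features and above 4 for 182. By brightness, the share with an SD above 1 was 4.52% of features up to the lower quartile, 6.84% from there to the median, 2.84% from the median to the upper quartile and 0.81% above it. Of the 1402 features 1158 had every array more than 1 above random, but their low hens could still lie at levels that genes of other tissues reached here. These counts are descriptions, because with 1 array a hen the measurement error of an array cannot be set apart from the hen.

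**Figure D2:**
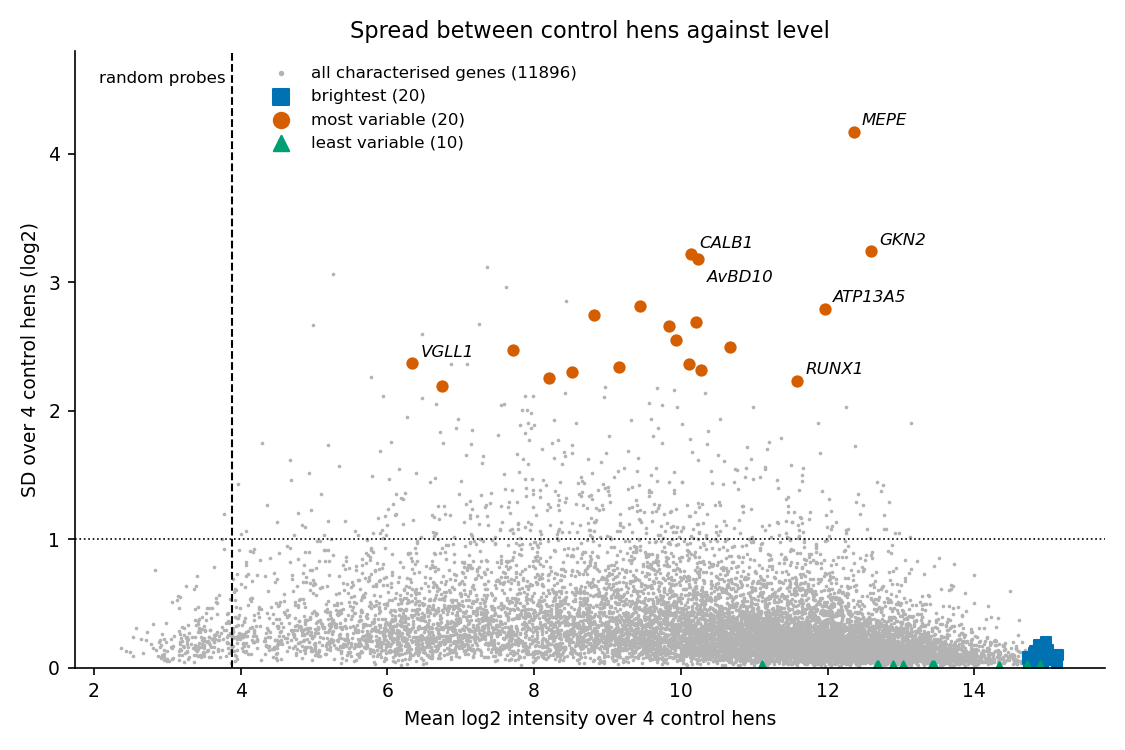
SD over the 4 control hens (y axis, log2) against mean log2 intensity (x axis) for the 11896 characterised genes (grey), with the 20 brightest, the 20 most variable and the 10 least variable genes marked; the dotted line is an SD of 1 and the dashed line the random probes. The brightest genes had an SD of at most 0.20, whereas MEPE reached 4.17.

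Eggshell and egg white proteins, a defensin, transporters and transcription factors were among the genes with the largest spread. The 20 with the largest SD among genes with every array above random were named by rule, and their values are a description. MEPE (LOC395256 on the array), the eggshell matrix protein also known as an ovocleidin, lay at 6.10, 14.62, 14.48 and 14.22, so hen 1 lay far below the rest. Its value in hen 1 is near the medians of the liver (5.89) and testis (6.38) lists, and the size of the gap is therefore not given. Its SD was 4.17 over 4 hens and 0.20 without hen 1. GKN2, known in the shell gland as an ovocalyxin, lay at 7.79, 14.59, 14.47 and 13.54, with an SD of 3.24 and of 0.58 without hen 1. The calcium-binding protein CALB1, which shell gland cells use to carry calcium, lay at 5.93, 10.91, 13.71 and 9.98. Its other features had the same lowest and highest hen but were dimmer, with means of 7.89 and 7.75. The feature with the mean of 7.75 was not called above random.

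Several other genes were high in hens 2 and 3. The defensin AvBD10 was given above, with hens 2 and 3 at 12.69 and 12.99. ATP13A5, a P-type ATPase, lay at 8.30, 14.10, 14.18 and 11.28, and ATP11B, which moves lipids across membranes, at 8.09, 12.57, 12.49 and 7.66. SLURP1 (HEP21), a small protein of hen egg white, was at 6.14, 10.48, 10.50 and 6.95. The fibrinogen chain FGB, best known from the liver, lay at 8.07, 12.66, 12.94 and 9.01 and in its other feature at 7.86, 12.72, 12.91 and 9.05. The epithelial transcription factor TFCP2L1 was at 7.39, 11.50, 12.66 and 9.55, and SGOL1, which guards the cohesion of chromatids, at 7.02, 11.51, 12.57 and 8.64. In all of these genes hens 2 and 3 were above hens 1 and 4.

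The opposite order was seen for other regulators. SOX2, a factor of stratified and ciliated epithelia, lay at 12.11, 9.44, 6.24 and 11.56, and in its other feature at 10.66, 8.56, 4.87 and 10.03. RUNX1 (LOC396152), a factor of blood and epithelial progenitors, was at 13.71, 10.59, 8.91 and 13.11. For both, hen 3 was the lowest and hens 1 and 4 were the highest. CYP3A5 (CYP3A7), an enzyme that oxidises steroids and drugs, lay at 9.48, 7.52, 7.37 and 13.42, and PLEKHG7 at 9.09, 8.05, 7.05 and 12.43. VAT1L was at 6.17, 5.94, 4.93 and 9.93, and like VGLL1 it was high in hen 4 alone. High in hen 3 alone were the sialidase NEU4 (10.23, 8.24, 13.41 and 8.55) and the cGMP-dependent kinase PRKG2 (5.21, 7.19, 11.12 and 7.31).

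**Figure D3:**
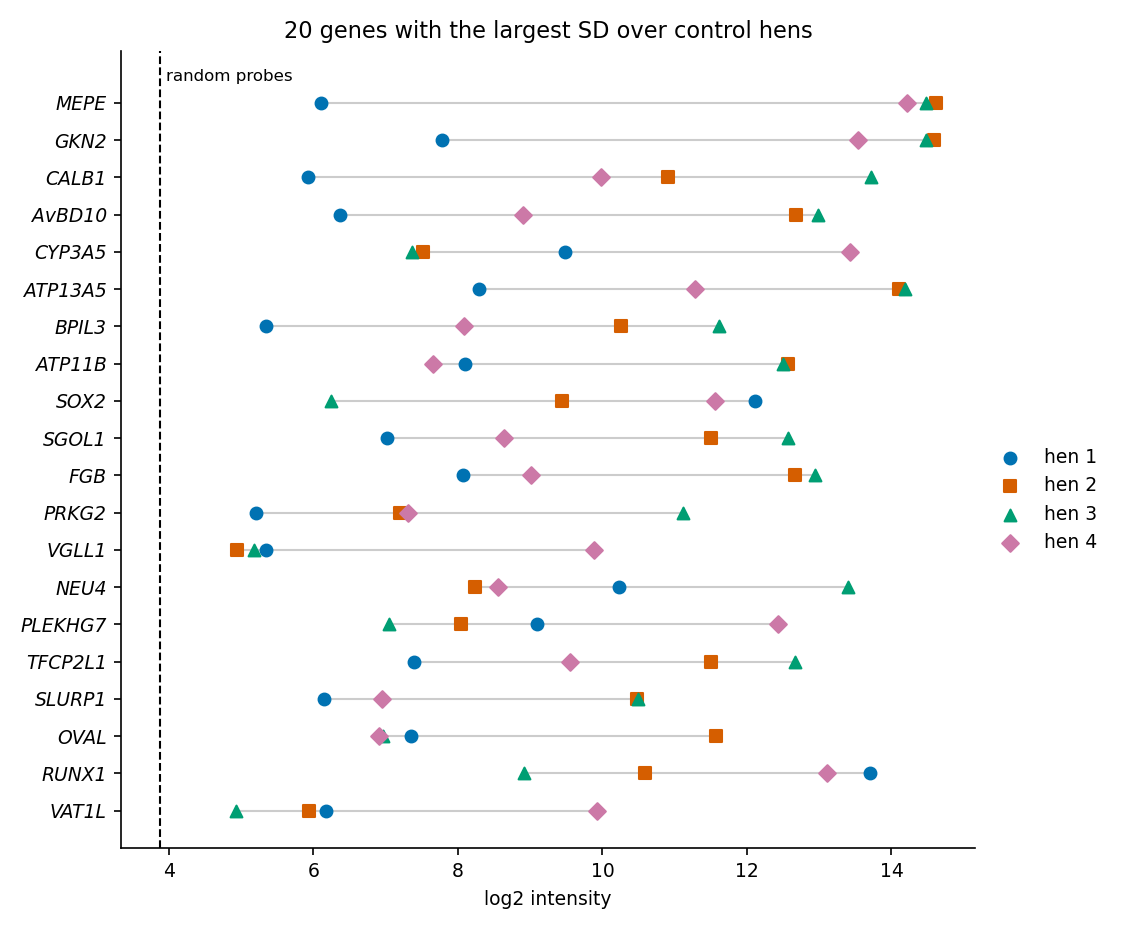
log2 intensity (x axis) in each control hen for the 20 characterised genes with the largest SD among those with every array more than 1 above the random probes (dashed line). MEPE and GKN2 were low in hen 1 alone, VGLL1 and VAT1L high in hen 4 alone, and OVAL high in hen 2 alone.

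Of these 20 genes 11 were lowest in hen 1 and 10 were highest in hen 3. A single hen set the SD of 13 of them to a large degree, as leaving it out lowered the SD by more than 1.5 times. This was hen 1 for MEPE, GKN2, CALB1 (to 1.94), ATP13A5 (1.65) and BPIL3 (1.78), and hen 2 for OVAL (0.24). It was hen 3 for SOX2 (1.41), PRKG2 (1.18) and NEU4 (1.07), and hen 4 for CYP3A5 (1.18), VGLL1 (0.20), PLEKHG7 (1.02) and VAT1L (0.66). AvBD10, ATP11B, SGOL1, FGB, TFCP2L1, SLURP1 and RUNX1 did not depend on 1 hen in this way.

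Over the 1158 variable features with every array above random, the same combinations of hens returned. The highest hen was hen 1 and the lowest hen 3 in 247, hen 4 and hen 3 in 247, hen 3 and hen 1 in 217, hen 2 and hen 1 in 114, and hen 3 and hen 4 in 104. The rarest combinations were hen 1 highest with hen 4 lowest, in 14 features, and hen 3 highest with hen 2 lowest, in 21. Arrays of hens 1 and 4 differed by more than 1 in 4.35% of features and those of hens 2 and 3 in 3.88%. For the other pairs the share was 8.30% to 11.8%, largest between hens 1 and 3. Several features of a gene mostly told the same. Of 82 variable genes with more than 1 feature, 57 had an SD above 1 in their next brightest feature as well, 69 had the same highest hen in both and 68 the same lowest hen, against 65.3% and 63.2% of all 1483 such genes.

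**Figure D4:**
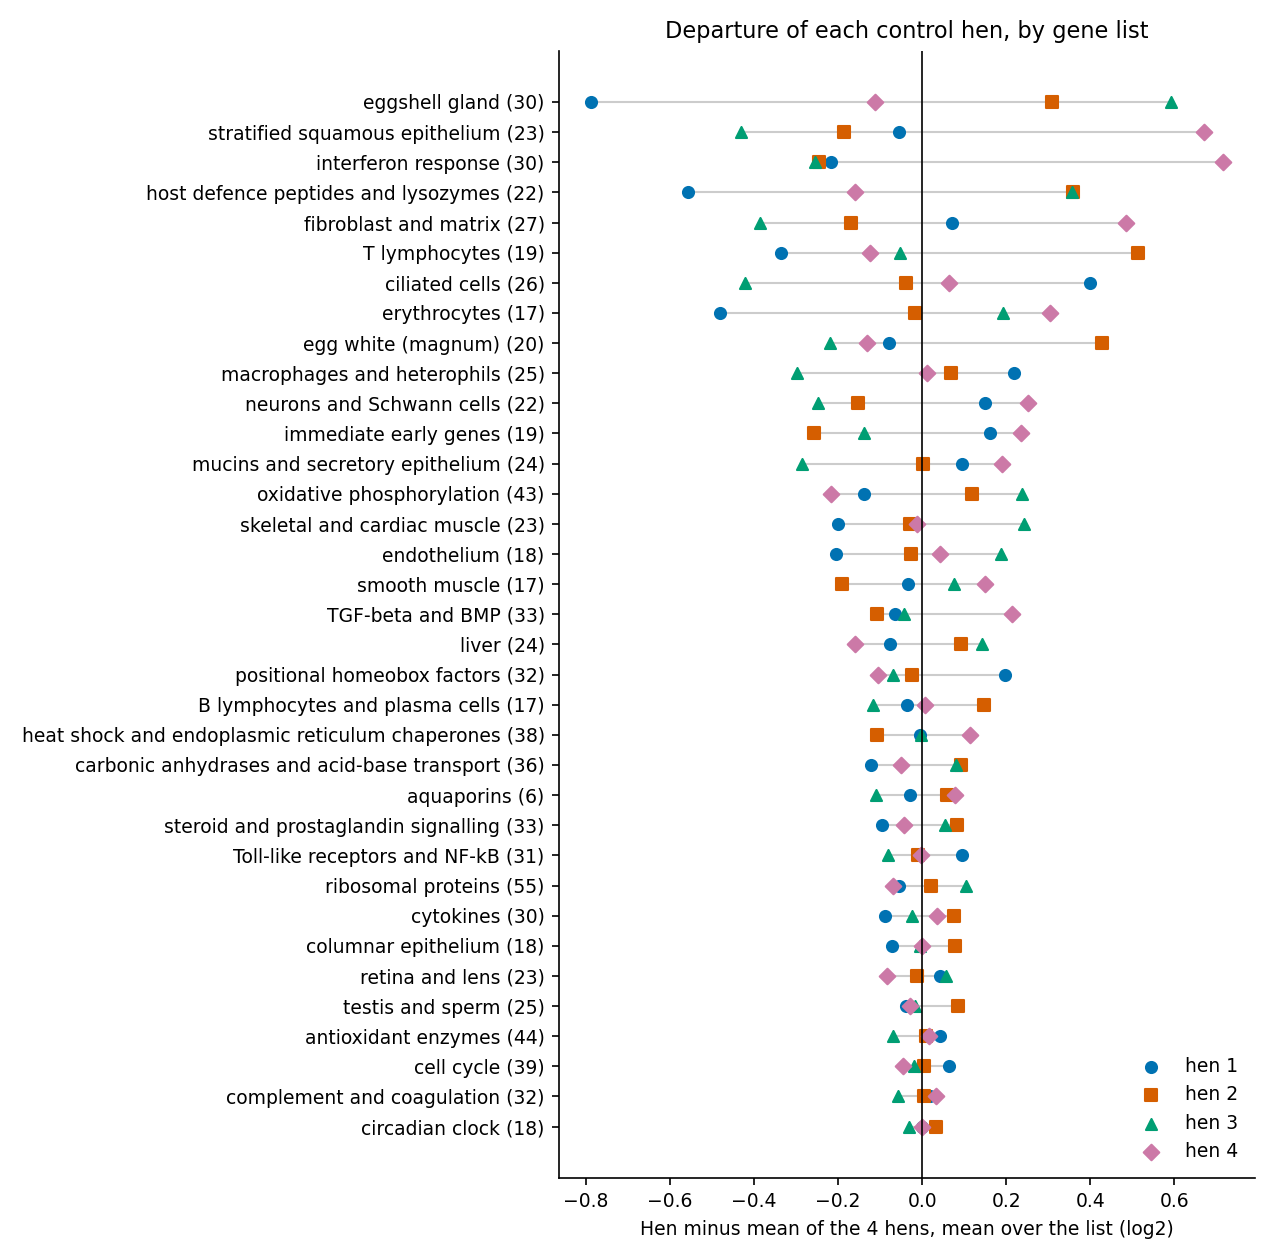
Departure of each control hen from the mean of the 4 hens (x axis, log2), averaged over the measured members of each of 35 gene lists (number in brackets), ordered by the range over hens. Eggshell gland genes had the widest range, 1.38, with hen 1 lowest and hen 3 highest, while columnar epithelium genes had a range of 0.15.

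Read by list, the widest ranges over hens were those of shell gland, squamous, interferon and host defence genes. The mean of the shell gland list was 11.40, 12.50, 12.78 and 12.08. Without its 7 members with an SD above 1 the mean was 12.29, 12.53, 12.59 and 12.35, a narrowing that follows in part from leaving out members for their spread. The ciliated and T lymphocyte lists had no member with an SD above 1, and their ranges of 0.82 and 0.85 came from small shifts over many genes. For connective tissue the range was 0.87.

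Energy and translation genes had narrow but regular differences. The 43 oxidative phosphorylation genes encoded in the nucleus, of which 42 were called (median 13.05), were highest in hen 3 for 34 and lowest in hen 4 for 30, with a list mean of 11.94, 12.20, 12.32 and 11.87. ATP5G3, a subunit of the ring of ATP synthase, lay at 13.82, 14.12, 14.18 and 13.88. All 55 ribosomal protein genes were called, against 94.9% of all characterised genes. Their median was 13.55 and their median SD 0.08, and hen 3 was the highest for 34. The array distributions had been made alike before deposit, so a shift of 1 group of genes in an array is relative to the rest of that array.

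**Figure D5:**
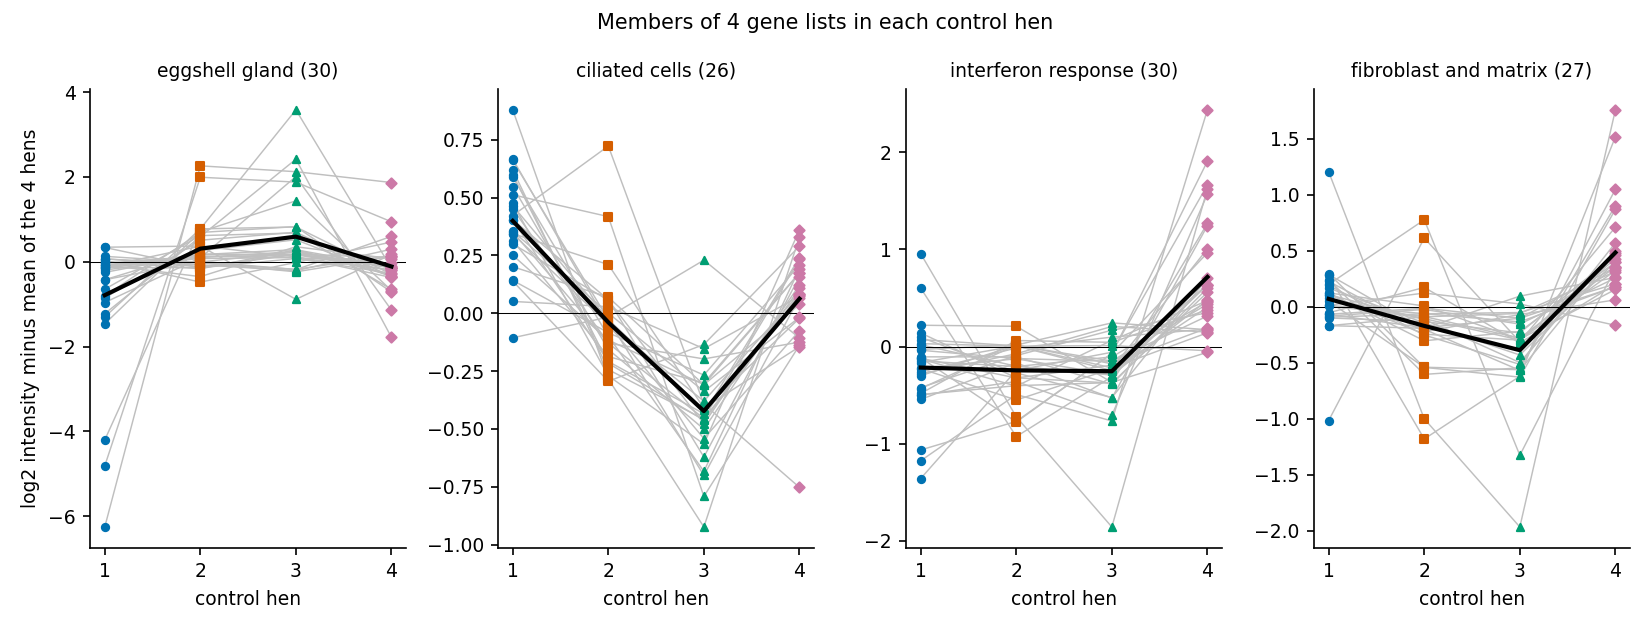
Members of 4 gene lists (number in brackets) in control hens 1 to 4, each as its log2 intensity minus its own mean over the 4 hens (y axes differ between panels); grey lines join 1 gene, the black line is the list mean, and the order of hens has no meaning. Ciliated cell genes were highest in hen 1 for 21 of 26, interferon response genes in hen 4 for 26 of 30 and connective tissue genes in hen 4 for 24 of 27.

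The spread of the control hens was also met in hens that were not used to find it. The median SD was 0.25 in the 4 mated hens and 0.24 in the 4 SF hens, and 5.99% and 4.01% of features had an SD above 1. Of the 1402 features that varied among controls, 62.6% also had an SD above 1 in mated hens and 41.2% in SF hens, against 3.78% and 2.56% of the other features. Spearman's rho between the SDs over all features was 0.66 and 0.59, as a description over features that share their probes and thus their brightness. In all 3 groups the SD was above 1 for 416 features and 156 characterised genes. Of the 20 most variable genes 18 passed that mark in mated hens and 16 in SF hens. MEPE, for example, ranged from 8.27 to 14.48 in mated hens and from 6.01 to 14.31 in SF hens, AvBD10 from 6.31 to 12.38 and from 4.56 to 10.61, and RUNX1 from 8.51 to 13.17 and from 9.66 to 12.43. The control range of each of the 20 genes overlapped the range of either other group. These genes were chosen for their spread among controls, which favours such overlap, so nothing is concluded from it.

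At the other end stood genes with hardly any difference between the control hens. The 10 least variable characterised genes at or above the median level had SDs of 0.01 to 0.02. RPSA, a ribosomal protein (RSSA_CHICK), lay at 14.35, 14.34, 14.35 and 14.33, TAF7, a part of the general transcription factor TFIID, at 12.67, 12.67, 12.70 and 12.67, and EXOC7, of the complex that tethers secretory vesicles, at 13.41, 13.44, 13.42 and 13.43. The others were HSPA8, the nuclear transport gene RANBP3, the kinetochore gene NSL1, RTFDC1 (C20orf43), cytochrome b (CYB_CHICK), the vesicle fusion gene VAMP3 and SMN, which assembles splicing particles. In mated hens their SD was higher, from 0.02 (RTFDC1) to 0.15 (TAF7). In SF hens it was 0.03 (VAMP3) to 0.16 (HSPA8). These genes were chosen for their small SD among controls, which favours a larger SD in other hens. Their control SD is therefore only a description and is not read as a steady level of these genes.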

How the data were processed

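UVJ total RNA was labelled with Cy3 and hybridised, 1 array a hen, to a custom NimbleGen chicken array, with all 12 arrays on 1 slide. The authors background-adjusted, quantile-normalised and summarised the probes by RMA in DEVA, and deposited 1 intensity per feature on a linear scale. Of the 37374 features, 37245 were summaries of 3 probes, and the deposited number of probe pairs (a count of another kind) was used only to find the 129 with fewer. The deposited table of the whole series held 37364 of the same features with equal values. Because the values were linear, log2 intensity was taken here.

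Names came from the array files. Of 21980 features with a name, 4032 took the symbol of their RefSeq accession, which was often the same, and 7569 others had a current symbol. Some protein entry names, such as IOV7_CHICK for SPINK5, were also replaced by a gene symbol. The 11896 characterised genes exclude tags, clones and LOC numbers without a symbol. Each gene was read by its brightest feature.

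For calls, the level of the random probes of the same array was subtracted, and limma 3.58.1 in R 4.3.3 fitted 1 mean over the 4 control hens per feature, with treat at a margin of 1 and Benjamini-Hochberg adjustment over all features (called at an adjusted p under 0.05). This step was tested on simulated data, in which features without signal were set at the random probes and not at the margin. The rate of false calls at the margin was therefore not tested. The p-values of the calls measure the spread between these 4 hens only. Spread was described by SD and range without a test. Alternatives changed the margin, reference, scaling, source table, prior, spread threshold, feature per gene and hens used.

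The control hens were taken by label alone, but the choice to describe them and the choice of gene lists were made with earlier results of these data known. Genes were named from the 20 brightest, the 20 most variable with every array more than 1 above random, the 10 least variable at or above the median level, and, of each list, the 4 brightest, the 2 most variable, the first listed and up to 3 with 1 hen apart. Not all of the list members that this rule gives are named, and other genes named were chosen after their values were seen. Some genes measured are not reported here.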

Additional observations from a re-analysis of the deposited data

Results flagged for a closer look

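For the 20 brightest genes, the 20 most variable genes, the 35 lists and the mean of all characterised genes, it was asked whether 1 control hen stood apart by a gap larger than Dixon's critical value for 4 samples. This was so for 8 of 76 sets of 4 values, and chance alone flags about 1 in 20 groups. The most variable genes were chosen for their spread, so their flags are a description.

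MEPE, of the eggshell matrix, was at 6.10 in hen 1 against 14.22 to 14.62 in the others, and GKN2 was at 7.79 in hen 1 against 13.54 to 14.59. VGLL1 was at 9.89 in hen 4 against 4.95 to 5.34. Ovalbumin, OVAL, was at 11.57 in hen 2 against 6.91 to 7.36. The mean of the interferon response genes was 11.71 in hen 4 against 10.74 to 10.78. The remaining gaps were small in size. The mitochondrial gene ATP6_CHICK was at 15.15 in hen 3 against 14.77 to 14.82, PKLR (PKM2 on the array), which encodes a pyruvate kinase, was at 14.61 in hen 1 against 14.76 to 14.78, and the mean of the testis and sperm genes was 6.91 in hen 2 against 6.79 to 6.81.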

How the results depend on the processing

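The number of features above random, 33426, stayed between 30576 and 35009 under the other margins, references, scalings, sources, priors and fits, and between 33210 and 33322 when 1 hen was left out. The number of features with an SD above 1, 1402, was 6159 at an SD above 0.5 and 341 among features at or above the median level only, both by construction. Under the other settings it was 1190 to 1399, and 1126 to 1755 with 1 hen left out. Of the 35 lists, 18 had a median at or above that of all genes, 17 with the mean or the median feature of a gene, and 18 to 18 with 1 hen left out. Single list medians moved by more than the spread between hens in 8 of 35 under either feature choice. The SDs of the 20 most variable genes held under both other scalings, and those that rest on 1 hen are given above. Without members with an SD above 1, an alternative chosen after seeing the data, the range over hens moved by more than 1.5 times in 11 lists. Such a choice favours a narrower range, and of these lists the aquaporins alone had a wider one (0.43 against 0.19). No paired analysis was possible because only 1 group was used. The number of arrays, 1 a hen and 4 in all, limits precision, and levels near the random probes carry little information.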

Other observations

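Positional homeobox genes, which fix the identity of segments along the reproductive tract, were all called (32 of 32, against 94.9% of all characterised genes, median 10.05). Of the 32, 7 (21.9%) had an SD above 1, where 4.03% of all characterised genes did. The lists were chosen with earlier results of these data known, so this share is only a description. MSX2, a homeobox factor, lay at 14.31, 14.34, 14.22 and 14.21. EMX2, needed to form the oviduct, was at 13.44 on average with an SD of 0.20. Among the variable ones, ISL1 lay at 12.51, 11.70, 9.94 and 12.36 and LHX1 at 13.04, 12.88, 10.70 and 12.38, both lowest in hen 3. HOXD10 (12.08, 11.23, 10.18 and 9.77) and HOXD8 (10.07, 9.16, 7.70 and 7.34) were highest in hen 1 and lowest in hen 4, whereas HOXD11 (9.33, 9.88, 10.63 and 7.76) was highest in hen 3.

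Clock genes were all called (18 of 18, against 94.9% of all characterised genes, median 11.21) and differed little. CLOCK lay at 12.59, 12.56, 12.66 and 12.58 and CRY2, a repressor of the clock, at 14.14, 14.39, 14.14 and 14.03, while PER2, another repressor, ranged more widely (12.70, 11.61, 10.83 and 12.28). Of nerve genes 21 of 22 were called (median 7.65). The neuropeptides NPY (13.72, 13.48, 11.85 and 13.20) and VIP (10.66, 8.61, 8.09 and 11.31), which act on oviduct muscle and vessels, were lowest in hen 3. Immediate early genes, which respond within minutes to handling or hormones, were all called (19 of 19, median 11.20), with JUN at 13.52, 13.80, 13.53 and 13.73 and EGR1 at 12.72, 11.78, 12.61 and 12.59. Of cell cycle genes 38 of 39 were called, at a median of 8.63, with cyclin CCND1 at a mean of 13.18 and MKI67, of dividing cells, at 7.01.

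In some genes 1 hen lay more than 2 from the other 3, which lay within 1 of each other. This was counted in 39 features above and 6 below for hen 4, 30 and 23 for hen 3, 15 and 7 for hen 1, and 12 and 7 for hen 2. In hen 4 they included CALML3, a calmodulin-like protein of stratified epithelium (7.51, 7.28, 7.15 and 11.16), and the cadherin FAT2 (8.24, 8.84, 8.69 and 11.33). In hen 3 they included the growth factors EREG (6.69, 6.89, 10.52 and 7.61) and FGF1 (10.54, 10.95, 13.40 and 10.43), above the others, and ALDH1A1, which makes retinoic acid (12.16, 11.46, 7.99 and 12.32), below them. These genes were chosen after their values were seen.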
